A study of Mus musculus with 12 samples.

Results

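Ciita and 9 genes of the MHC class II antigen presentation pathway were examined in mouse kidney cortex, 10 of the 55487 genes in the count table. The 9 genes were Cd74, H2-Aa, H2-Ab1, H2-Eb1, H2-DMa, H2-DMb1, H2-DMb2, H2-Oa and H2-Ob. The members were selected by name on the low Ciita level of knockout kidneys after ischemia–reperfusion (I/R) against control kidneys after I/R, which was already known from these data. Values from that comparison, from the interaction of genotype and I/R that contains it, and from the 2 I/R comparisons that share 3 libraries each with it, are therefore given as a description: no p-value is printed for a member, and counts of calls appear only beside the share over all genes, with nothing read from them. RNA-seq was made from 12 libraries in 4 groups of 3. Ctrl kidneys came from ALR flox/flox mice without Cre, labelled WT with sham surgery, and Ctrl+I/R kidneys from the same genotype with I/R. PT-KO kidneys came from ALR flox/flox mice with Ggt1-Cre, labelled ALR knockdown with sham surgery, and PT-KO+I/R kidneys from that genotype with I/R. I/R was 22 min of ischemia of both kidneys followed by 24 h of reperfusion, and the mice were 6–8 weeks old on a mixed C57BL/6 background. ALR, encoded by Gfer, was floxed in all 4 groups, and Ggt1-Cre acts in proximal tubule cells, so that other kidney cells keep the gene. The labels do not say that libraries of a group are separate mice, and p-values measure the spread between libraries, which may be technical in the groups whose libraries did not differ in Xist or H2-Ea-ps as given below.

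MHC class II molecules display peptides from taken-up proteins to CD4+ T cells. They are made mainly by dendritic cells, B cells and macrophages, and kidney epithelium can be induced to make them by interferon gamma. Ciita is the coactivator that switches the whole set on: it binds no DNA itself and is recruited to class II promoters by a complex of RFX factors, CREB1 and NF-Y on the X and Y boxes. Cd74, the invariant chain, escorts the α and β chains to the endosome, H2-DM loads the peptide, and H2-DO restrains H2-DM.

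The 8 H2 members lie in a single cluster of 252.3 kb on chromosome 17 (GRCm38, from 34092340 to 34344645, the cluster's end being that of H2-Ea-ps), 9.4 Mb from Gfer on the same chromosome (24693187 to 24696156). Ciita is at chr16:10480059-10528418 and Cd74 lies on another chromosome. Promoter sequences of RefSeq (GRCm38.p6), the 250 bases before each annotated start, were available for 7 members: H2-Aa, H2-Eb1, H2-DMa, H2-DMb1, H2-DMb2, H2-Oa and H2-Ob. The X box core was searched as AGNAAC and the Y box as ATTGG, on both strands, with the Y box 20 to 36 bases after the core and no overlap between them. The pair was present in 4 of the 7 members (H2-Eb1, H2-DMb1, H2-Oa and H2-Ob), always on the coding strand, and in 247 of all 32851 promoters (0.752%). ATTGG alone was present in all 7, against 33.8% of all promoters. The sequences below are shown because they are the binding region through which Ciita acts. All are written 5′ to 3′ on the strand of the gene, with the matched X core and Y box in capitals; for H2-Aa and H2-DMb2 only the Y box matched.
H2-Eb1, chr17:34305750-34305827, plus strand: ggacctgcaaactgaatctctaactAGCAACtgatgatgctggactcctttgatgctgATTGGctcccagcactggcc
H2-DMb1, chr17:34153071-34153149, plus strand: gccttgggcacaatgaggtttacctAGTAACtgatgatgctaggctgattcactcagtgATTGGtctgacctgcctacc
H2-Oa, chr17:34092277-34092355, plus strand: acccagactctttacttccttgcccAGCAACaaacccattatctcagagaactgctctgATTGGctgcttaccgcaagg
H2-Ob, chr17:34238792-34238867, plus strand: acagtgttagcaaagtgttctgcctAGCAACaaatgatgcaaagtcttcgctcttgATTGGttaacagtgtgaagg
H2-Aa, chr17:34287852-34287931, minus strand: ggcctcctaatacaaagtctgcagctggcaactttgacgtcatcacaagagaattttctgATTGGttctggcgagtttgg
H2-DMb2, chr17:34145099-34145178, plus strand: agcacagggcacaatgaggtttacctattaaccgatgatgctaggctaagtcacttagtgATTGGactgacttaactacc

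The 4 cores began 92 (H2-Eb1), 95 (H2-DMb1), 77 (H2-Oa) and 88 (H2-Ob) bases before the start, and 25 to 28 bases separated core and Y box. H2-DMa has 2 entries, of which 1 held ATTGG, 198 bases before the start, and neither the pair. The pair in these letters was thus shared by the chain gene H2-Eb1, by a gene of H2-DM and by both genes of H2-DO, whose levels in the kidney differed widely. The neighbouring gene H2-Eb2, outside the list and with at most 3 counts in a library, also held it, with the core 133 bases before the start.

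**Figure D1:**
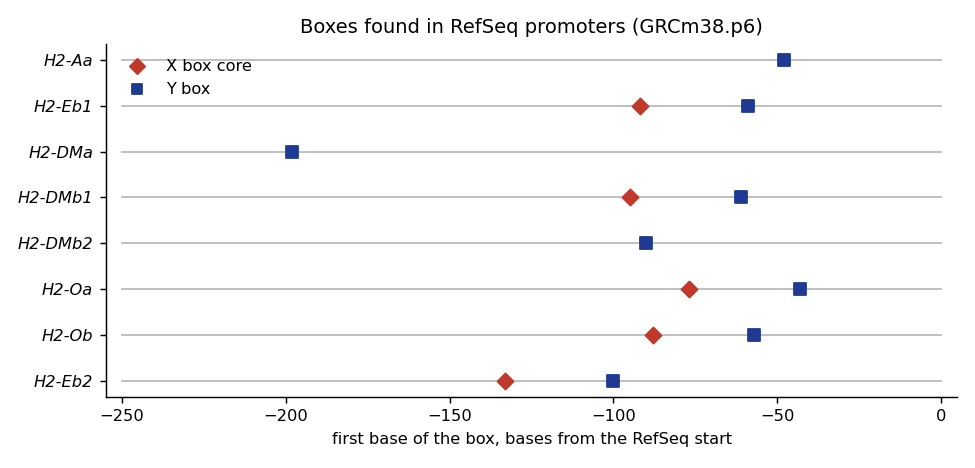
First bases of the X box core (red diamonds) and of the Y box (blue squares) in RefSeq promoters, in bases from the annotated start, for the 7 members with an entry and for the neighbouring gene H2-Eb2. In H2-Eb1, H2-DMb1, H2-Oa and H2-Ob the core lies 77 to 95 bases before the start, and in H2-Eb2 133 bases. In H2-Aa, H2-DMa and H2-DMb2 only the Y box matched the letters searched.

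Library totals ranged from 12165089 to 23123693 counts, and 20416 to 22210 genes had a count. Gfer did not check the genotype labels: it was at 12.8 ± 1.52 CPM (read counts relative to library size, scaled by TMM, mean ± SD, n = 3) in Ctrl and 14.0 ± 3.68 CPM in the libraries labelled PT-KO, a log2 difference of 0.13 ± 0.20 (SE, edgeR's quasi-likelihood test, adjusted p = 0.761). After I/R it was at 17.6 ± 2.34 CPM in Ctrl+I/R and 22.0 ± 0.674 CPM in PT-KO+I/R, higher without overlap (log2 difference 0.32 ± 0.13, adjusted p = 0.0723). The counts cover the whole gene, so that transcripts without the floxed part and transcripts of cells without Cre are included, and directions below are those of libraries labelled PT-KO. Ctrl libraries 1 and 2 held 22402 and 19755 counts of Xist and none of 4 Y-linked genes, a female pattern, while the other 10 libraries held at most 11 counts of Xist. A further difference lay within the class II cluster. H2-Ea-ps, a class II α chain gene that the H2b haplotype of C57BL/6 mice does not transcribe, had 212 and 170 counts in Ctrl libraries 2 and 3, and 564 and 120 in Ctrl+I/R libraries 1 and 4, and at most 2 counts in each of the other 8 libraries, including all 6 labelled knockout. Whether the class II haplotype differed among the libraries was not tested, and all 4 libraries with H2-Ea-ps were controls. The genotype comparisons were also fitted without these 4 libraries.

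In Ctrl kidneys the levels per kb of merged exon ran from Cd74 at 27.6 ± 3.19 CPM per kb down to H2-Oa at 0.0647 ± 0.0569 CPM per kb (SD, n = 3). H2-Eb1 came next after Cd74 with 13.2 ± 4.13 CPM per kb, followed by H2-Ab1 with 7.99 ± 4.11, H2-Aa with 7.33 ± 3.40 and H2-DMb1 with 6.23 ± 3.35. Cd74 did not overlap with H2-Eb1, whereas H2-Eb1, H2-Ab1, H2-Aa and H2-DMb1 each overlapped with the next of these 4. H2-DMa stood apart from both of its neighbours at 1.24 ± 0.238 CPM per kb, and H2-DMb2, Ciita and H2-Ob each overlapped with the next of these 3, at 0.504, 0.295 and 0.205 CPM per kb. In PT-KO+I/R kidneys the order of all 10 was the same as in Ctrl, with Cd74 at 9.25 ± 1.27 CPM per kb and Ciita at 0.0237 ± 0.0206.

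Ciita, the switch of the pathway, was at 2.41, 3.98 and 2.05 CPM in the 3 Ctrl libraries and at 4.17, 2.53 and 5.77 CPM in PT-KO. It reached 23.4, 15.5 and 4.81 CPM in Ctrl+I/R. In PT-KO+I/R it had 0, 8 and 5 counts, or 0, 0.356 and 0.322 CPM. Every Ctrl+I/R library lay above every library of the other groups for Ciita except that its lowest, at 4.81 CPM, was below PT-KO library 4. The PT-KO+I/R libraries lay below all other libraries. Pooled over the group, 13 counts in PT-KO+I/R against 895 in Ctrl+I/R gave a 59.6-fold lower level (95% interval 34.7 to 112, exact binomial, counting error only), and the fitted log2 fold change was -5.80 ± 0.78 (SE). Exons of Ciita share 329 bases with Dexi on the opposite strand, and since the strand of counting is not given, reads of the 2 genes cannot be told apart there.

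Cd74 was at 49.2, 49.6 and 40.1 CPM in Ctrl, 46.8, 58.5 and 69.8 CPM in PT-KO, and 113, 41.7 and 43.4 CPM in Ctrl+I/R. It was at 18.0, 14.6 and 14.0 CPM in PT-KO+I/R. A single Ctrl+I/R library carried the high value, and without it Cd74 was 1.47 lower on the log2 scale in PT-KO+I/R than after I/R in controls (log2 fold change -1.47), against -2.11 ± 0.39 (SE) with all 6 libraries. In bulk tissue, fewer cells of a type and less RNA per cell cannot be told apart.

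**Figure D2:**
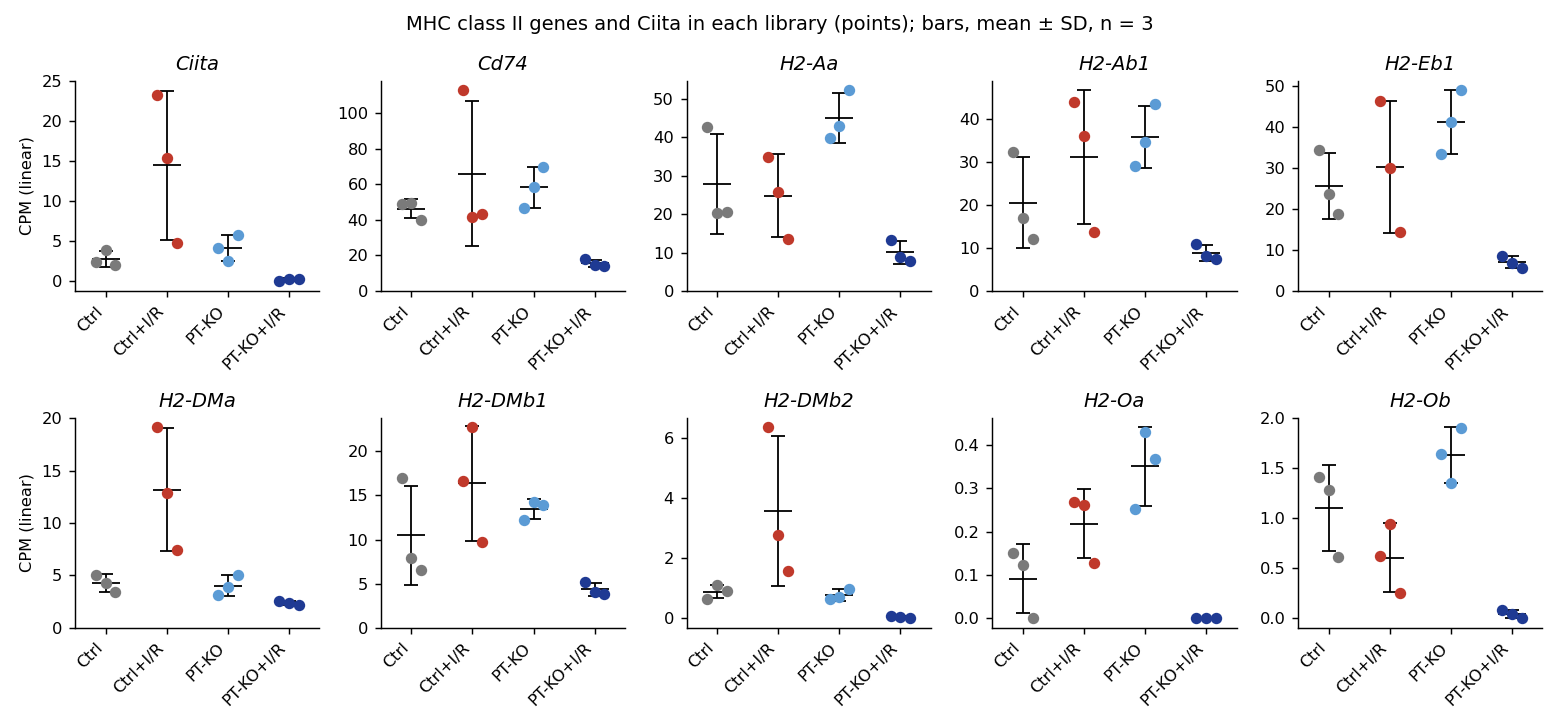
CPM of the 10 genes in each library (points, linear axes), with the mean ± SD of the 3 libraries of each group. PT-KO+I/R (dark blue) lies below Ctrl+I/R (red) and PT-KO (light blue) in all 10 panels, and Ciita, H2-DMa and H2-DMb2 are higher in every Ctrl+I/R than in every Ctrl library (grey).

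The α chain gene H2-Aa was at 42.7, 20.3 and 20.5 CPM in Ctrl, 39.8, 42.8 and 52.3 CPM in PT-KO, 35.0, 25.8 and 13.4 CPM in Ctrl+I/R, and 13.3, 8.95 and 7.80 CPM in PT-KO+I/R. Its β chain partner H2-Ab1 was at 32.4, 17.01 and 12.1 CPM in Ctrl, 29.1, 34.7 and 43.5 CPM in PT-KO, 43.8, 35.9 and 13.8 CPM in Ctrl+I/R, and 10.9, 8.15 and 7.42 CPM in PT-KO+I/R. H2-Eb1, the β chain of the other class II molecule, was at 34.5, 23.7 and 18.8 CPM in Ctrl, 33.5, 41.1 and 49.1 CPM in PT-KO, 46.4, 30.1 and 14.4 CPM in Ctrl+I/R, and 8.47, 6.94 and 5.61 CPM in PT-KO+I/R. The Ctrl+I/R libraries overlapped with Ctrl for all 3 genes, and the PT-KO+I/R libraries were below every Ctrl+I/R and every PT-KO library. PT-KO+I/R differed from Ctrl+I/R by a log2 fold change of -1.32 ± 0.35 (SE) for H2-Aa, -1.84 ± 0.39 for H2-Ab1 and -2.13 ± 0.39 for H2-Eb1. H2-Aa was nearest to overlap, its highest PT-KO+I/R library at 13.3 CPM lying just under its lowest Ctrl+I/R library at 13.4 CPM.

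H2-DMa encodes the α chain of the peptide loader and H2-DMb1 and H2-DMb2 its β chains. H2-DMa was at 5.08, 4.28 and 3.44 CPM in Ctrl, 3.09, 3.93 and 5.03 CPM in PT-KO, 19.2, 12.8 and 7.46 CPM in Ctrl+I/R, and 2.57, 2.31 and 2.19 CPM in PT-KO+I/R. H2-DMb1 was at 16.9, 7.89 and 6.60 CPM in Ctrl, 12.2, 14.2 and 13.9 CPM in PT-KO, 16.6, 22.7 and 9.74 CPM in Ctrl+I/R, and 5.22, 4.01 and 3.87 CPM in PT-KO+I/R. H2-DMb2 had 13, 18 and 16 counts in Ctrl, 10, 13 and 16 in PT-KO, 142, 53 and 25 in Ctrl+I/R, and 1, 1 and 0 in PT-KO+I/R. H2-DMa and H2-DMb2 were thus higher in every Ctrl+I/R library than in every Ctrl library, and H2-DMb1 was not. PT-KO+I/R was lower than Ctrl+I/R by a log2 fold change of -2.50 ± 0.35 (SE) for H2-DMa and -1.92 ± 0.30 for H2-DMb1, and for H2-DMb2 the pooled counts, 2 against 220, gave a 95.2-fold lower level (95% interval 26.1 to 791, counting error only). Of the 220, 142 were from Ctrl+I/R library 1, and without it the level of H2-DMb2 was 55.4-fold lower (2 against 78 counts, 95% interval 14.8 to 465). Transcripts of H2-DMb1 and H2-DMb2 are 95.5% identical over 1058 aligned bases, with an identical run of 221 bases, and how reads were divided between them is uncertain. H2-DMa shares 360 exonic bases with Brd2 on the opposite strand.

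H2-Oa and H2-Ob, the chains of the H2-DM inhibitor, are mainly known from B cells and had the lowest mean levels per kb of merged exon in each group. H2-Ob had 28, 21 and 11 counts in Ctrl, 26, 25 and 31 in PT-KO, 14, 18 and 4 in Ctrl+I/R, and 1, 1 and 0 in PT-KO+I/R. The pooled level of H2-Ob was 15.6-fold lower in PT-KO+I/R than after I/R in controls (2 against 36 counts, 95% interval 4.01 to 134, counting error only). H2-Oa had 3, 2 and 0 counts in Ctrl, 4, 8 and 6 in PT-KO, and 6, 5 and 2 in Ctrl+I/R. It had no count in any PT-KO+I/R library, which placed it at least 3.75-fold lower there than in Ctrl+I/R (floor of 3 counts over the group, counting error only). H2-Oa shares 321 exonic bases with the opposite-strand gene BC051537 and passed the filter on low counts in none of the comparisons of 2 groups.

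In the comparison that chose the members, all 10 were lower in every PT-KO+I/R than in every Ctrl+I/R library, where 29.1% of the 15281 genes tested were. Of the 8 members that passed the filter on low counts, 8 were called lower at an adjusted p of 0.05, beside 24.4% of all genes called lower and 22.5% called higher. The interaction of genotype and I/R, fitted to all 12 libraries, was called lower for 9 of 9 members beside 16.4% of all genes, with log2 values from -2.01 ± 0.50 (SE) for H2-Aa to -6.36 ± 0.91 for Ciita. Nothing about the members is read from these counts, since the choice used both. Of the 2 neighbouring class II genes outside the list, H2-Eb2 had at most 3 counts in a library and H2-Ea-ps is described below.

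Without I/R, the knockout comparison shares no library with the choice of the members. PT-KO against Ctrl gave 0 of 9 members called by edgeR's quasi-likelihood test, beside 0% of 15291 genes called, and 3 members with an unadjusted p under 0.05 against 2573 of all genes. DESeq2 called 440 of 15642 genes in this comparison and none of the members. The 3 were the chain genes H2-Eb1, H2-Ab1 and H2-Aa, with log2 fold changes of 0.68 ± 0.22, 0.80 ± 0.33 and 0.69 ± 0.28 (SE) and adjusted p-values of 0.23, 0.278 and 0.277. Their 95% intervals ran from 0.16 to 1.20 for H2-Eb1, from 0.04 to 1.55 for H2-Ab1 and from 0.04 to 1.33 for H2-Aa, so that the size of a difference was poorly bounded. Without the Ctrl libraries that held H2-Ea-ps, the log2 fold changes were 0.26 for H2-Eb1, 0.15 for H2-Ab1 and 0.08 for H2-Aa, against the single Ctrl library 1. That library had a female pattern and the PT-KO libraries did not, so that sex and genotype cannot be told apart in these 3 values. Ciita differed by 0.56 ± 0.37 (95% interval -0.29 to 1.41, adjusted p = 0.457) and Cd74 by 0.33 ± 0.15 (-0.02 to 0.68, adjusted p = 0.314). For H2-DMa the value was -0.09 ± 0.25 (-0.66 to 0.48, adjusted p = 0.877). H2-Oa was the only member higher in every PT-KO than in every Ctrl library, as were 9.76% of genes tested, at 18 against 5 counts in all.

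**Figure D3:**
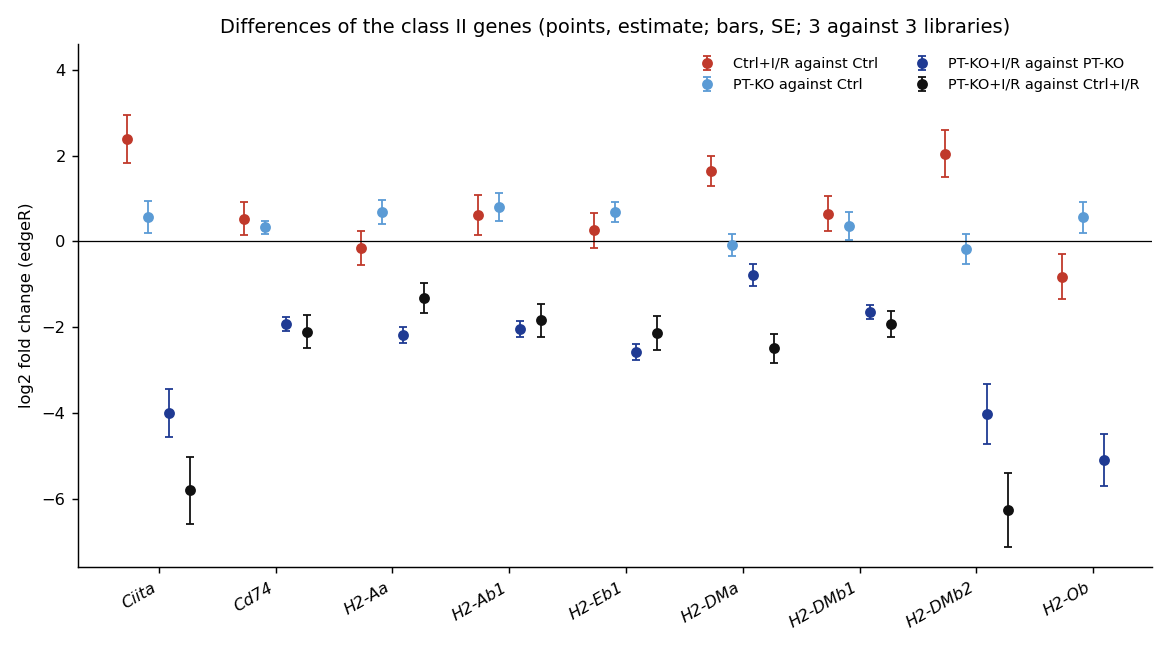
Log2 fold changes (points) with SE (bars) of the 9 members that passed the filter in at least 1 comparison of 2 groups, each from 3 against 3 libraries. Ciita, H2-DMa and H2-DMb2 lie at 1.64 to 2.39 in Ctrl+I/R against Ctrl (red), PT-KO against Ctrl (light blue) lies between -0.18 and 0.80, and both comparisons of PT-KO+I/R (dark blue, black) lie below 0; H2-Ob was not tested in PT-KO+I/R versus Ctrl+I/R.

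After I/R in control mice, 3 of 9 members tested were called higher by edgeR, beside 11.4% of all 15567 genes tested. They were Ciita, with a log2 fold change of 2.39 ± 0.56 (SE), H2-DMa with 1.64 ± 0.35 and H2-DMb2 with 2.04 ± 0.55. The same 3 members were the ones with no overlap between Ctrl and Ctrl+I/R, as were 21.3% of genes. This comparison uses the Ctrl+I/R libraries whose Ciita level helped to choose the members, so that its values are a description. The main chains and Cd74 were not called. Cd74 differed by 0.53 ± 0.38, H2-Ab1 by 0.61 ± 0.47, H2-Eb1 by 0.25 ± 0.40, H2-Aa by -0.16 ± 0.40, H2-DMb1 by 0.65 ± 0.41 and H2-Ob by -0.82 ± 0.52. Calls depended on single libraries: none remained without Ctrl library 1, 2 or 3 or without Ctrl+I/R library 1, and 1 remained without Ctrl+I/R library 2. With sex as a covariate 1 remained, beside 2029 of all 16168 genes called. The log2 fold changes stayed above 0 with any single library left out, from 1.85 to 2.80 for Ciita, 1.25 to 1.92 for H2-DMa and 1.31 to 2.39 for H2-DMb2, while calls over all genes went from 3019 to 379, 413 and 2227 without Ctrl library 1, 2 and 3, and to 833, 1635 and 4061 without Ctrl+I/R library 1, 2 and 4.

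After I/R in knockout mice, all 9 members tested were called lower, beside 32.7% of all 15155 genes, and all 10 were lower in every PT-KO+I/R than in every PT-KO library, beside 35.0% of genes. This comparison uses the PT-KO+I/R libraries whose low Ciita level chose the members, so that nothing is read from these counts. The log2 fold change was -3.99 ± 0.56 (SE) for Ciita. It was -1.92 ± 0.16 for Cd74, -2.19 ± 0.19 for H2-Aa, -2.04 ± 0.18 for H2-Ab1 and -2.57 ± 0.18 for H2-Eb1. H2-DMb1 had -1.64 ± 0.17, H2-DMb2 -4.03 ± 0.69 and H2-Ob -5.10 ± 0.60, the last 2 resting on 2 counts each in PT-KO+I/R. H2-DMa had the smallest change of the 9, -0.78 ± 0.25, and was no longer called by DESeq2, in the fit to all 12 libraries, or without PT-KO library 4, PT-KO+I/R library 3 or PT-KO+I/R library 4. Pooled counts put H2-DMb2 at 19.1-fold (2 against 39 counts, 95% interval 4.94 to 163) and H2-Ob at 40.1-fold lower (2 against 82, 10.8 to 337), counting error only, and H2-Oa, without a count, at least 5.87-fold lower.

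The ratios of Ciita and H2-DMa to Cd74 are given as a description, since the low Ciita level in PT-KO+I/R chose the members. Per 100 Cd74 counts, Ciita had 4.91 to 8.01 counts in Ctrl, 4.33 to 8.89 in PT-KO, 11.1 to 37.0 in Ctrl+I/R and 0 to 2.43 in PT-KO+I/R, so that the 4 groups fell into 3 ranges without overlap, Ctrl and PT-KO sharing 1. H2-DMa was at 8.56 to 10.3 counts per 100 of Cd74 in Ctrl, 6.60 to 7.21 in PT-KO, 16.98 to 30.8 in Ctrl+I/R and 14.3 to 15.8 in PT-KO+I/R.

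H2-Aa and H2-Ab1 relative to Cd74 split without overlap by the presence of H2-Ea-ps. In the 4 libraries with H2-Ea-ps, H2-Aa had 30.9 to 51.0 counts per 100 Cd74 counts, and in the 8 without it 55.8 to 86.9. H2-Ab1 had 30.2 to 38.7 with it and 53.0 to 86.1 without. H2-Eb1 overlapped, at 33.1 to 47.7 with H2-Ea-ps and 40.1 to 72.2 without, its lowest values without it being those of PT-KO+I/R. The split was not particular to these chains: the class I gene H2-K1 also had no overlap, at 130 to 195 counts per 100 Cd74 counts with H2-Ea-ps and 235 to 1112 without, whereas the class I gene H2-D1 overlapped at 224 to 331 with it and 263 to 1474 without. H2-DMb1 overlapped at 14.7 to 22.4 with it and 19.96 to 54.4 without. Class II genes differ in sequence between haplotypes, and whether reads of another haplotype were mapped less often was not tested. Among the libraries without H2-Ea-ps, Ctrl library 1 and Ctrl+I/R library 2 each stand alone for their group. The level of Ctrl library 1 for H2-Aa, 42.7 CPM, was within the PT-KO range of 39.8 to 52.3 CPM, and Ctrl+I/R library 2 held 25.8 CPM of H2-Aa and 15.5 CPM of Ciita, above all PT-KO+I/R libraries. A fit to the libraries without H2-Ea-ps has 1 control against 3 knockout libraries, with the control assumed to vary like the others. In PT-KO against Ctrl that control was Ctrl library 1, which had a female pattern, unlike the PT-KO libraries. Sex and genotype cannot be told apart there. In PT-KO+I/R versus Ctrl+I/R, whose values chose the members, Cd74 was at -1.44 on the log2 scale, with nothing read from it.

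**Figure D4:**
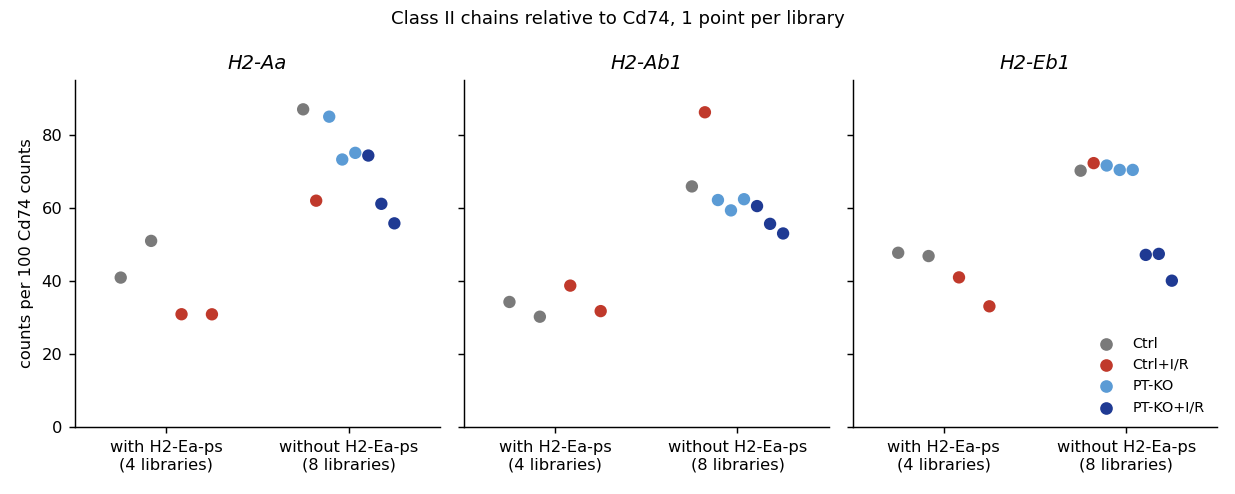
Counts of H2-Aa, H2-Ab1 and H2-Eb1 per 100 Cd74 counts, 1 point per library, split by whether the library held more than 10 counts of H2-Ea-ps and coloured by group. The 4 libraries with H2-Ea-ps lie below the other 8 for H2-Aa and H2-Ab1; for H2-Eb1 the 3 PT-KO+I/R libraries overlap with them.

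Factors that carry Ciita to class II promoters were compared next. After I/R, PT-KO against Ctrl kidneys had 3 of 7 factors called lower and a median log2 fold change of -0.32, beside 24.4% called lower and a median of -0.00 over all genes tested. Nfya, a subunit of NF-Y, was lower by -0.79 ± 0.16 (SE, edgeR, adjusted p = 0.00556), Nfyc by -0.51 ± 0.17 (0.0409) and Creb1 by -0.32 ± 0.11 (0.0442), whereas Rfx5, of the X box complex, was at 15.9 against 20.4 CPM (log2 fold change -0.36 ± 0.15, adjusted p = 0.0778). Rfxap of the same complex, at 12.1 against 8.96 CPM, had a value in the other direction (0.43 ± 0.17, adjusted p = 0.0646) and rose with I/R in knockouts (0.51 ± 0.15, adjusted p = 0.0115, edgeR). In that I/R comparison of knockouts 2 of the 7 were called lower, Nfya (-0.73 ± 0.13, adjusted p = 0.000661) and Nfyc (-0.86 ± 0.09, adjusted p = 2.82e-05), a share near the 32.7% over all genes. In Ctrl+I/R against Ctrl none of the 7 was called by edgeR, with 2 at an unadjusted p under 0.05 and 1 or 2 called in some of the other fits.

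Upstream of Ciita, Ifng had at most 1 count in a library. Its receptor gene Ifngr1 rose after I/R in both genotypes, to 53.6 CPM from 29.5 in control kidneys (log2 fold change 0.87 ± 0.13, adjusted p = 0.00987, edgeR) and to 118 CPM from 34.2 in knockout kidneys (1.78 ± 0.12, adjusted p = 1.27e-06). Irf1, an activator of the Ciita promoter, was lower in PT-KO+I/R, at 13.95 against 29.3 CPM in Ctrl+I/R (-1.07 ± 0.27, adjusted p = 0.0144) and was called in neither I/R comparison (0.69 ± 0.27, 95% interval 0.07 to 1.31, adjusted p = 0.104, in controls, and -0.18 ± 0.19, adjusted p = 0.427, in knockouts). Of the 8 genes of this list tested between the genotypes after I/R, 2 were called higher (Ifngr1 and Jak2) and 2 lower, Irf1 among them.

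Genes that act beside class II went different ways. From here on, counts of calls for the genotypes after I/R stand beside 24.4% of all genes called lower and 22.5% called higher. Ctss, the protease that trims Cd74 in antigen-presenting cells, rose with I/R in control kidneys from 10.7 to 34.8 CPM (1.72 ± 0.34, adjusted p = 0.0201, edgeR) and was lower in PT-KO+I/R at 14.9 CPM (-1.24 ± 0.30, adjusted p = 0.0118). The widely expressed lysosomal protease gene Ctsl was higher in PT-KO+I/R, at 2489.7 against 984 CPM in Ctrl+I/R (1.33 ± 0.16, adjusted p = 0.000661). In that comparison 3 of the 8 lysosomal genes were called higher and 1 lower. The costimulator Cd86 was at 0.622 against 2.10 CPM (-1.75 ± 0.31, adjusted p = 0.00327), 1 of 4 costimulation genes called lower of 6 tested. Class I genes split in the same comparison, with 7 of 10 called lower. Nlrc5, the class I counterpart of Ciita, was at 2.55 against 7.88 CPM (-1.63 ± 0.42, adjusted p = 0.0152) and B2m at 195 against 314 CPM (-0.70 ± 0.21, adjusted p = 0.027). The heavy chain genes H2-K1 and H2-D1 had values of 0.15 ± 0.26 (adjusted p = 0.67) and 0.01 ± 0.20 (adjusted p = 0.972). Relative to Cd74, H2-K1 split by the presence of H2-Ea-ps, which Ctrl+I/R libraries 1 and 4 held and the PT-KO+I/R libraries did not. The part of this difference in the value of H2-K1 was not tested.

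Markers of the cells that carry class II also differed between the groups, though not always with the members, and their part in the results was not tested. Summed over 8 pan-leukocyte genes, levels were 61.3 to 68.4 CPM in Ctrl, 61.0 to 69.5 in PT-KO, 96.8 to 184 in Ctrl+I/R and 52.0 to 57.2 in PT-KO+I/R. In Ctrl+I/R against Ctrl 6 of 8 were called higher and 1 lower (Cytip), beside 1778 higher and 1241 lower of all 15567 genes, and in PT-KO+I/R versus Ctrl+I/R 6 of 8 were called lower. Ptprc, which encodes CD45, rose from 14.3 to 30.4 CPM in controls (1.09 ± 0.25, adjusted p = 0.0286, edgeR) and fell from 13.6 to 6.13 CPM in knockouts (-1.16 ± 0.17, adjusted p = 0.000199). In PT-KO+I/R versus PT-KO its list had 3 of 8 called lower and 2 higher (Cd53, 1.01 ± 0.29, and Arhgap15, 1.09 ± 0.33) and a median log2 fold change of -0.23, beside 4949 lower and 4980 higher of all 15155 genes. As a mean of log2(CPM + 0.5), the list differed from the Ctrl mean by -0.07, -0.07 and -0.02 in the PT-KO+I/R libraries, and the members by -1.15, -1.29 and -1.40. The list mean joins genes that were called in opposite directions with I/R in knockouts. The list also covers neutrophils, whose genes are given below. In Ctrl+I/R libraries 1, 2 and 4 the list differed from the Ctrl mean by 1.80, 1.31 and 0.88, and the members by 1.17, 0.76 and -0.11. As a description, since the low levels in PT-KO+I/R chose the members, summed CPM of the 10 members per summed CPM of the pan-leukocyte genes was 1.71 to 2.83 in Ctrl, 2.77 to 3.49 in PT-KO, 1.12 to 1.65 in Ctrl+I/R and 0.77 to 1.03 in PT-KO+I/R. Per 100 Ptprc counts, Ciita had 16.2 to 25.7 counts in Ctrl, 23.04 to 38.1 in PT-KO, 25.3 to 58.9 in Ctrl+I/R and 0 to 5.88 in PT-KO+I/R, the first 3 ranges overlapping.

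Macrophage markers were lower in PT-KO+I/R versus Ctrl+I/R for 9 of 12 genes, and 1, Cd68, was higher, named after its value was seen. Adgre1, which encodes F4/80, was at 0.384 against 7.98 CPM (-4.37 ± 0.38, adjusted p = 0.000251, edgeR) and Csf1r at 13.3 against 35.5 CPM (-1.42 ± 0.22, adjusted p = 0.00171). The macrophage sum was 144 to 227 CPM in Ctrl+I/R and 108 to 120 CPM in PT-KO+I/R, with no defining marker at 0 in every library of a group. Its largest part was Mertk, at a mean of 40.9 CPM in Ctrl+I/R and 50.6 CPM in PT-KO+I/R, while 10 of the 12 genes had a lower value. Of 12 dendritic cell genes only 5 passed the filter, with 1 lower (Itgax, 1.07 against 8.00 CPM, -2.98 ± 0.45, adjusted p = 0.00161) and 1 higher (Irf8, 27.2 against 17.1 CPM, 0.65 ± 0.22, adjusted p = 0.0415), while 1 marker, Xcr1, was at 0 in every PT-KO+I/R library. Of all 12, tested or not, 5 were lower and 1 higher in PT-KO+I/R versus Ctrl+I/R without overlap, beside 29.1% of genes tested that were lower. Their sum was 251 to 596 CPM in Ctrl+I/R and 436 to 538 CPM in PT-KO+I/R and was mostly Cd24a, a gene that tubule cells also express. With I/R in knockouts, 4 of 7 dendritic cell genes tested were called lower and 2 higher (Irf8, 1.13 ± 0.15, and Cd24a, 1.65 ± 0.14), beside 4949 lower and 4980 higher of all 15155 genes. Among the 4, Flt3, a growth factor receptor of dendritic cells, fell from 0.810 to 0.122 CPM (-2.89 ± 0.60, adjusted p = 0.00189).

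B cell markers were low throughout, and the 1 gene of 9 tested after I/R, Ebf1, was at 5.72 against 5.78 CPM. Ms4a1 was at 0.0445 CPM in PT-KO+I/R against 0.407 CPM in Ctrl+I/R, and Cd79a at 0.0445 against 0.652 CPM, neither of them tested. Of the 9 genes, 4 were lower in every PT-KO+I/R than in every Ctrl+I/R library, Cd79a among them, beside 29.1% of all genes tested. Sums of the B cell list were 8.29 to 10.4 CPM in Ctrl+I/R and 5.34 to 7.62 CPM in PT-KO+I/R. On average most of the sum was Ebf1 in both groups, so that it shows little of the other genes of the list. Neutrophil genes, which belong to cells without class II in the resting state, went the other way: 4 of 6 were called higher in PT-KO+I/R versus Ctrl+I/R, S100a9 at 30.6 against 9.59 CPM (1.67 ± 0.42, adjusted p = 0.013, edgeR), and their sum was 56.6 to 88.5 CPM against 9.80 to 43.1 CPM. T cell genes were called lower for 4 of 4 tested and monocyte genes for 3 of 5. Proximal tubule genes, whose part in the results was not tested either, differed too, with sums of 13207 to 13783 CPM in Ctrl, 12367 to 14083 in PT-KO, 3663 to 8483 in Ctrl+I/R and 2232 to 2873 in PT-KO+I/R. Of the 8, 5 were called lower in PT-KO+I/R versus Ctrl+I/R, 4 in Ctrl+I/R against Ctrl and 8 in PT-KO+I/R versus PT-KO, where 4949 of all 15155 genes were.

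**Figure D5:**
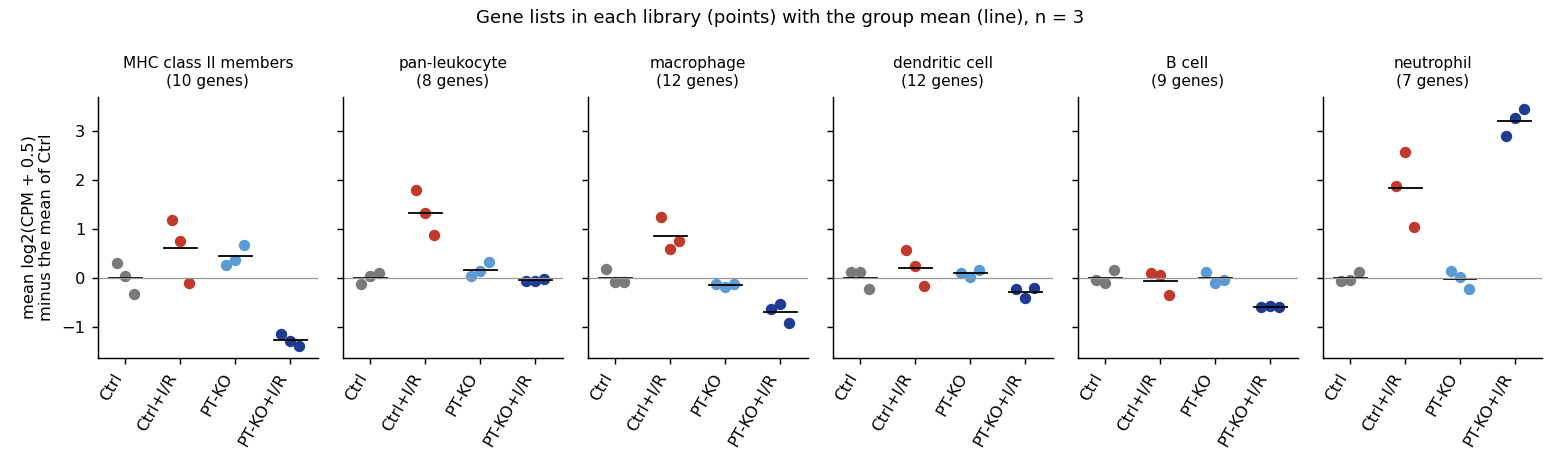
Mean log2(CPM + 0.5) of the class II members and of 5 marker lists in each library (points), less the mean of the Ctrl libraries, with the group mean (line, n = 3). In PT-KO+I/R the class II members, the macrophage list and the B cell list lie below Ctrl, the pan-leukocyte list lies near Ctrl, and the neutrophil list lies above all other groups.

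Over the 12 libraries, each member's log2(CPM + 0.5) was compared with the mean standardised profile of the other members as a description, the libraries sharing group and depth. Pearson's r was 0.95 for H2-Eb1, 0.94 for H2-Ab1 and Cd74, 0.93 for H2-DMb1, 0.89 for Ciita and 0.84 for H2-Aa, and was lowest for H2-DMa at 0.73 and H2-Ob at 0.75. Among 16159 other genes, the 10 with the pattern most like the mean of the 9 members included Slamf7 (0.96), AW112010 (0.96), Smco3 (0.96), Slc37a2 (0.95), Clec2d (0.95), Zfp14 (0.94), Zfp932 (0.94), Mov10 (0.94) and Map4k1 (0.93). By Spearman's rank 3 of these 10 were again among the closest 10. Slamf7, a receptor of leukocytes, was at 1.499 CPM in Ctrl, 1.82 in Ctrl+I/R, 1.90 in PT-KO and 0.219 in PT-KO+I/R.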

How the data were processed

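The authors deposited 1 table of raw read counts per Ensembl gene for 12 mouse kidney cortex libraries. Per the submitters' processing notes, HISAT2 2.0.4 and the mm10 genome were used; the counting program and its strand setting are not given in the sources used here. Deposited counts were tested as they stood with edgeR 4.0.16 (R 4.3.3): filterByExpr, TMM scaling, glmQLFit and glmQLFTest on the 6 libraries of each comparison, or on all 12 for the interaction of genotype and I/R, with Benjamini-Hochberg adjustment over all genes tested and a threshold of 0.05. CPM were scaled by TMM over all 12 libraries. Of 55487 identifiers, 55141 had a symbol. Members and gene lists were chosen with earlier results of these data known. The text names all members, H2-Eb2, H2-Ea-ps, Gfer, the 3 most abundant genes of each list, further genes of known role and the 10 genes of most similar pattern; other genes are named as examples after their values were seen. Some genes that this rule would name are not reported here. Column Con-3 bears a number that no control title has and was assigned to Ctrl by its name, with no replicate pairing. Libraries that share a number correlated at a median r of -0.03 over 12 pairs, and at most 1.45% of genes had equal counts in 2 libraries of a group. Scripts were tested on simulated data. Alternatives were DESeq2 1.42.0, other scaling and filters, a replicate block, sex as a covariate, 1 fit to all 12 libraries and leaving out each library; those on H2-Ea-ps were added after seeing the data.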

Additional observations from a re-analysis of the deposited data

Results flagged for a closer look

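For 3 of the 10 genes, every Ctrl+I/R library was above every Ctrl library and every PT-KO+I/R library was below every PT-KO library, a pattern seen in 1.81% of the 16168 genes of the interaction fit. The I/R log2 fold change in knockout kidneys less that in control kidneys was -6.36 for Ciita, -2.40 for H2-DMa and -6.06 for H2-DMb2. The difference was not tested as independent evidence, because it contains the comparison by which the members were chosen, and nothing is read from the count of 3.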

How the results depend on the processing

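In Ctrl+I/R against Ctrl, the count of members called was 3, beside 3019 of all 15567 genes. With sex as a covariate in a fit to all 12 libraries it was 1, beside 2029 of 16168 genes. When single libraries were left out it was 0 to 3, beside 379 of 15831 to 4061 of 16221 genes. With the replicate block it was 4, beside 3612 of 15567 genes. The count of members called was 0 throughout in PT-KO against Ctrl, where calls over all genes ran from 0 to 1930. Nothing is read from the counts that use PT-KO+I/R libraries, which ran from 6 to 10 in PT-KO+I/R versus Ctrl+I/R (7 with the replicate block), where calls over all genes ran from 11.01% with the replicate block to 52.4% with sex as a covariate. They were also 6 to 10 in PT-KO+I/R versus PT-KO and in the interaction, with shares of all genes from 39.6% to 66.4% and from 12.6% to 33.4%. The replicate numbers did not pair the libraries, as only 1 of 12 pairs correlated above 0.1. Log2 fold changes changed sign for members that were not called. In Ctrl+I/R against Ctrl, H2-Aa was 0.029 with the replicate block, 0.28 with sex as a covariate and -0.50 to 0.30 with single libraries left out; H2-Ob was 0.015 with sex as a covariate; and Cd74 and H2-Eb1 ran from -0.12 to 0.79 and from -0.21 to 0.58 with single libraries left out. In PT-KO against Ctrl, H2-DMa was 0.23 with sex as a covariate and -0.28 to 0.070 with single libraries left out, H2-DMb2 was -0.39 to 0.0043 with single libraries left out, and, in the libraries without H2-Ea-ps and with H2-Ea-ps as a covariate, H2-DMb1 was -0.33 and -0.19 and H2-DMb2 was 0.24 and 0.21. In PT-KO+I/R versus Ctrl+I/R 11 values of members, and in the interaction 14, moved by more than the spread between libraries with no change of sign; Cd74 was -2.11 in the former, -1.42 with the replicate block, -1.44 without H2-Ea-ps libraries and -1.47 without Ctrl+I/R library 1. The cause was not tested. Among the lists, dendritic cell genes called in PT-KO+I/R versus Ctrl+I/R numbered 2, but 5 to 7 with DESeq2, no filter on low counts or fits to all 12 libraries, and 1 with the replicate block or without H2-Ea-ps libraries. Over all genes, calls numbered 7169 in that comparison, 1683 with the replicate block and 3562 without H2-Ea-ps libraries. In Ctrl+I/R against Ctrl they numbered 3019, and 379 to 4061 with single libraries left out and 4938 in 1 fit to all 12 libraries. In PT-KO against Ctrl they numbered 0, and 440 with DESeq2, 388 with no filter, 1378 with the replicate block and 1930 without Ctrl library 3. The fits to libraries without H2-Ea-ps could not be made for the I/R comparisons, where they leave 1 against 1 library in controls and change nothing in knockouts. Counts under about 20 limit H2-Oa, H2-Ob, H2-DMb2 and, in PT-KO+I/R, Ciita.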
